A study of Homo sapiens with 5 samples.

Results

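The TEAD transcription factors and their partners were followed in HLF, an established line of human hepatocellular carcinoma cells. The genes were taken by symbol. They are the 4 TEAD factors TEAD1, TEAD2, TEAD3 and TEAD4, their cofactors YAP1, WWTR1 (which encodes TAZ), VGLL3 and VGLL4, and the target genes AMOTL2 and ANKRD1, 10 genes in all. All 10 had a row among the 11102 genes of the first deposited table, and 9 of them had a row among the 12342 genes of the other tables. VGLL3 was not analysed in the latter, so that 9 genes met the condition of being listed in each of the 3 tables. The family was selected on the value of VGLL3 in the authors' comparison of USP28-KO with USP28-Ctrl, which was not used here, and its other genes were chosen by name.

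The study sequenced RNA of 5 conditions, with 1 sample listed for each. USP28-Ctrl cells carry a control guide RNA (sgCtrl), and USP28-KO cells carry a guide RNA against USP28 (sgUsp28), which encodes a deubiquitinase. The other conditions are USP28-KO cells transduced with the empty vector (pRRL-Ctrl), with wildtype USP28 (pRRL-Usp28-WT) or with monomeric USP28 (pRRL-Usp28-Mono), abbreviated USP28-WT and USP28-M. All of these last 3 conditions share the sgUsp28 background, no drug treatment is listed for any condition, and the knockout came from single picked clones, so that clone and knockout cannot be told apart. The quantity used is the authors' average log2 CPM (a gene's reads scaled to library size, on the log2 scale) over all libraries of a comparison. It exists once for USP28-Ctrl and USP28-KO together, the knockout fit, and once for USP28-KO vector, USP28-WT and USP28-M together, the reconstitution fit. Levels of a single condition or library were not analysed, which leaves the replicate error unknown, and no test between conditions was made. In bulk RNA, fewer cells of a kind and less RNA per cell cannot be told apart.

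The Hippo pathway is a kinase cascade that restrains tissue growth. Its kinases LATS1 and LATS2 phosphorylate YAP and TAZ, which are then kept out of the nucleus, while unphosphorylated YAP and TAZ enter it and bind TEAD factors, the DNA-binding part of the complex. VGLL proteins bind the same face of TEAD factors as YAP and TAZ, and in liver the pathway is known for its control of organ size. Short promoter elements with the core GGAATG, or CATTCC on the other strand, are the classical binding sequence of TEAD factors.

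To show what this core looks like in the target genes of the family, the 250 bases before the transcription start are given 5′ to 3′ for ANKRD1 and AMOTL2, with each match to the core in capitals. The sequences are from RefSeq on GRCh38.p14, and both lie on the minus strand. AMOTL2 has a further RefSeq promoter without a match, and the promoter with a match is shown. The sequences lie at chr10:90921088-90921337 for ANKRD1 and at chr3:134374448-134374697 for AMOTL2.
ANKRD1: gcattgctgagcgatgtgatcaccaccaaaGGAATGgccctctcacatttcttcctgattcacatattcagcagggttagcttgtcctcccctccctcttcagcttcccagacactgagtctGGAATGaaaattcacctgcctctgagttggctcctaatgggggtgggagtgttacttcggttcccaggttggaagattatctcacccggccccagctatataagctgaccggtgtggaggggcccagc
AMOTL2: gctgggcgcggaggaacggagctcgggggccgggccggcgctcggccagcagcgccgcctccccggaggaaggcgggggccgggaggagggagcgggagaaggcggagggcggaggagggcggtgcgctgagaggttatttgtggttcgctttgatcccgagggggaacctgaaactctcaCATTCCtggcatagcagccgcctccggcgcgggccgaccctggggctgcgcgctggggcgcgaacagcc
ANKRD1 held 2 matches, which began 220 and 128 bases before the start, and AMOTL2 held 1 match, 69 bases before it. Promoter sequences of 300 bases (250 before and 50 after a start) were at hand for 8 of the 10 genes, with 15 promoters among them. Searched for GGAATG and CATTCC on the printed strand, 3 of these promoters held a match, those shown and the promoter of YAP1. Of all 35116 promoters of this length, 14.0% held at least 1 match and 1.37% at least 2. A match is a description of the sequence, and binding was not measured here.

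YAP1 and WWTR1 encode the coactivators that the Hippo kinases control. WWTR1 had an average level of 8.55 log2 CPM in the knockout fit (376 CPM, percentile 96.5 of the genes in the table) and 8.12 in the reconstitution fit (278 CPM, percentile 94.8). YAP1 had 7.75 log2 CPM in the knockout fit (215 CPM, percentile 92.2) and 7.73 in the reconstitution fit (213 CPM, percentile 92.7). By reads per gene, a scale that favours long transcripts and on which all percentiles are given, both coactivators lay at percentile 92.2 or above in each fit. The level per kilobase of the longest annotated transcript takes length into account but depends on the transcript chosen. On this scale WWTR1 stood at 74.8 CPM and YAP1 at 39.8 CPM in the knockout fit. In the reconstitution fit the values per kilobase were 55.2 CPM for WWTR1 and 39.4 CPM for YAP1. WWTR1 made up 65.3% of the summed level per kilobase of the pair in the knockout fit and 58.4% in the reconstitution fit. With the median transcript length in place of the longest, a choice made after seeing the data, these shares were 83.5% and 79.1%.

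**Figure D1:**
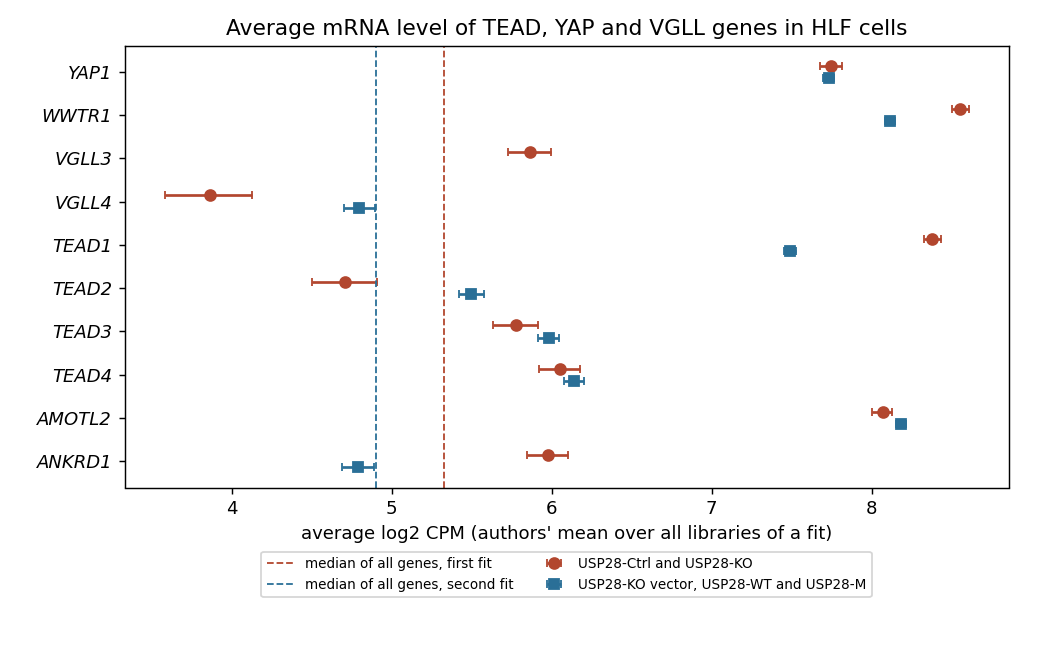
Average log2 CPM (x axis) of the 10 genes (y axis) in the knockout fit (circles, USP28-Ctrl and USP28-KO) and the reconstitution fit (squares, USP28-KO vector, USP28-WT and USP28-M). Bars are 95% Poisson intervals, which cover counting error only, and dashed lines are the medians of all genes, 5.33 and 4.90. WWTR1, TEAD1, AMOTL2 and YAP1 lie farthest to the right in both fits, and VGLL3 has a point in the knockout fit alone.

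VGLL3 and VGLL4 encode cofactors that bind TEAD factors through a short Tondu motif, and VGLL4 is known as an antagonist of YAP. VGLL3 averaged 5.86 log2 CPM over USP28-Ctrl and USP28-KO (58.2 CPM, percentile 63.2), which rests on about 448 reads with a 95% Poisson interval of 407 to 491. This average does not say how the reads were divided between the conditions. Of the 4082 genes at or above this level in the knockout fit, 3 were not analysed in the reconstitution fit, namely VGLL3, FOS and PA2G4P4, which were singled out after their values had been seen. The cut was the level of VGLL3 itself, the gene on whose value the family was selected. All conditions of the reconstitution fit share the sgUsp28 background, so the missing value of VGLL3 is not independent of that selection. The count is a description only. Over the whole knockout fit 126 of 11102 genes (1.14%) had no value in the reconstitution fit, with a median level of 2.87 log2 CPM in the knockout fit. The filter on low genes that the authors applied is not given in the sources used here, and its part in this was not tested. VGLL4 averaged 3.86 log2 CPM in the knockout fit (14.6 CPM, percentile 19.2) and 4.80 in the reconstitution fit (27.9 CPM, percentile 47.9). Per kilobase, VGLL3 stood at 5.60 CPM and VGLL4 at 3.91 CPM in the knockout fit, and VGLL4 at 7.48 CPM in the reconstitution fit. These were the lowest values of the family per kilobase of the longest transcript. That order did not hold per kilobase of the median transcript length. On that scale, in log2 CPM, TEAD2 (3.60) stood below VGLL4 (4.22) and VGLL3 (4.56) in the knockout fit, and ANKRD1 (3.81) stood below TEAD2 (4.38), TEAD3 (4.76) and VGLL4 (5.16) in the reconstitution fit. VGLL1 and VGLL2, the remaining members of the VGLL family, had no level in either fit.

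The TEAD genes encode paralogous factors that bind the same DNA element. TEAD1 averaged 8.38 log2 CPM in the knockout fit (333 CPM, percentile 95.7) and 7.49 in the reconstitution fit (180 CPM, percentile 90.9). TEAD4 averaged 6.05 log2 CPM and 6.14, in the same order. TEAD3 averaged 5.78 log2 CPM in the knockout fit and 5.98 in the reconstitution fit. TEAD2 was the lowest TEAD mRNA in both fits, per kilobase as well, at 4.71 log2 CPM in the knockout fit and 5.50 in the reconstitution fit. On the scale of CPM per kilobase, TEAD1 and TEAD4 both stood at 39.3 in the knockout fit, with overlapping counting intervals, followed by TEAD3 (18.4) and TEAD2 (10.7). In the reconstitution fit, TEAD4 came first with 41.8 CPM per kilobase, TEAD1 and TEAD3 stood at 21.2 each with overlapping counting intervals, and TEAD2 stood at 18.5. TEAD1 thus made up 36.5% of the summed level per kilobase of the TEAD genes in the knockout fit and 20.7% in the reconstitution fit, and TEAD4 made up 36.5% and 40.7%. The sum itself was 108 CPM per kilobase in the knockout fit and 103 in the reconstitution fit. With the median transcript length, TEAD1 had the largest share in the knockout fit (50.1%, TEAD4 34.9%) and TEAD4 in the reconstitution fit (44.0%, TEAD1 32.0%).

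**Figure D2:**
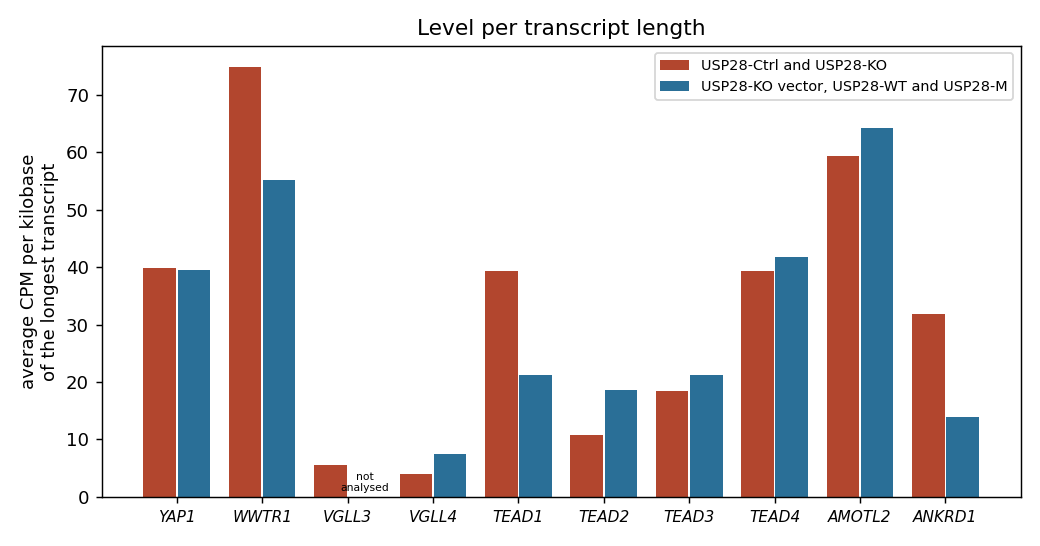
Average CPM per kilobase of the longest GENCODE transcript (y axis, from 0) for the 10 genes in the knockout fit (red) and the reconstitution fit (blue), with no error bars because replicate values were not analysed. WWTR1 and AMOTL2 have the tallest bars in both fits, WWTR1, TEAD1 and ANKRD1 have clearly the taller bar in the knockout fit, and VGLL4, TEAD2, TEAD3, TEAD4 and AMOTL2 have the taller bar in the reconstitution fit, while the bars of YAP1 are nearly equal (39.8 and 39.4).

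AMOTL2, a junction and scaffold protein that binds YAP, and ANKRD1, a nuclear ankyrin repeat protein, are widely read as target genes of YAP and TAZ. AMOTL2 averaged 8.07 log2 CPM in the knockout fit (268 CPM, percentile 94.1) and 8.18 in the reconstitution fit (290 CPM, percentile 95.2). Per kilobase it was next to WWTR1 in the knockout fit, at 59.4 CPM, and the highest of the genes in the reconstitution fit, at 64.3 CPM. ANKRD1 averaged 5.98 log2 CPM in the knockout fit (63.0 CPM, percentile 66.0) and 4.79 in the reconstitution fit (27.7 CPM, percentile 47.7). Over all members the median level was 6.02 log2 CPM in the knockout fit, beside 5.33 for all genes, and the median percentile was 66.8. For the 9 genes of the reconstitution fit the median was 6.14 log2 CPM, beside 4.90 for all genes, and the median percentile was 74.0. The fits hold different sets of genes. Among the genes of both fits the median percentile was 66.5 in the knockout fit and 70.7 in the reconstitution fit.

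The fits were normalized separately and differ in libraries, conditions and depth, so a difference between them describes 2 tables and is no comparison of conditions. Over the 10976 genes in both fits, the level in the reconstitution fit minus that in the knockout fit was -0.12 in the median on the log2 scale, with the 5th and 95th percentiles at -1.24 and 0.67. ANKRD1 (-1.19, percentile 5.66 of these genes) and TEAD1 (-0.89, percentile 11.6) had the lowest differences of the family. VGLL4 (0.93, percentile 98.0) and TEAD2 (0.79, percentile 96.8) had the highest. WWTR1 had a difference of -0.44, and TEAD3, AMOTL2, TEAD4 and YAP1 lay between -0.01 and 0.21. Of the 9 genes, 6 lay above the median of all shared genes and 3 below it. The counting intervals of the fits did not overlap for ANKRD1, TEAD1, VGLL4, TEAD2, TEAD3, WWTR1 and AMOTL2. This is 7 of 9 genes, beside 61% of all shared genes, and the intervals leave out the spread between libraries. On the log2 scale the intervals are narrower for genes with more reads, and the 61% was not matched to the family by level.

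Across genes, this difference moved with transcript GC content (Spearman's rho 0.482 over 10684 genes). The genes of a fit share its libraries and are not independent of each other. The genes were split by GC content into 5 bins of equal size. From the lowest bin to the highest, the median differences were -0.66, -0.27, 0.02, 0.10 and 0.05. ANKRD1, TEAD1, WWTR1 and YAP1 had transcripts with 40.9% to 43.5% GC and lay in a bin with a median difference of -0.27. TEAD2, TEAD3 and TEAD4 had 58.4% to 60.4% GC and lay in the bin with a median difference of 0.05. VGLL4 and AMOTL2 had 52.1% and 56.7% GC and lay in the bin with a median difference of 0.10. Among the 9 genes of both fits, those with 40.9% to 43.5% GC had differences of -0.01 or below. Those with 52.1% GC or more had differences of 0.09 or above. VGLL3 had the lowest GC content of the family, 37.3%, and no difference, since it had a level in the knockout fit alone. The part of GC content in the differences was not tested.

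**Figure D3:**
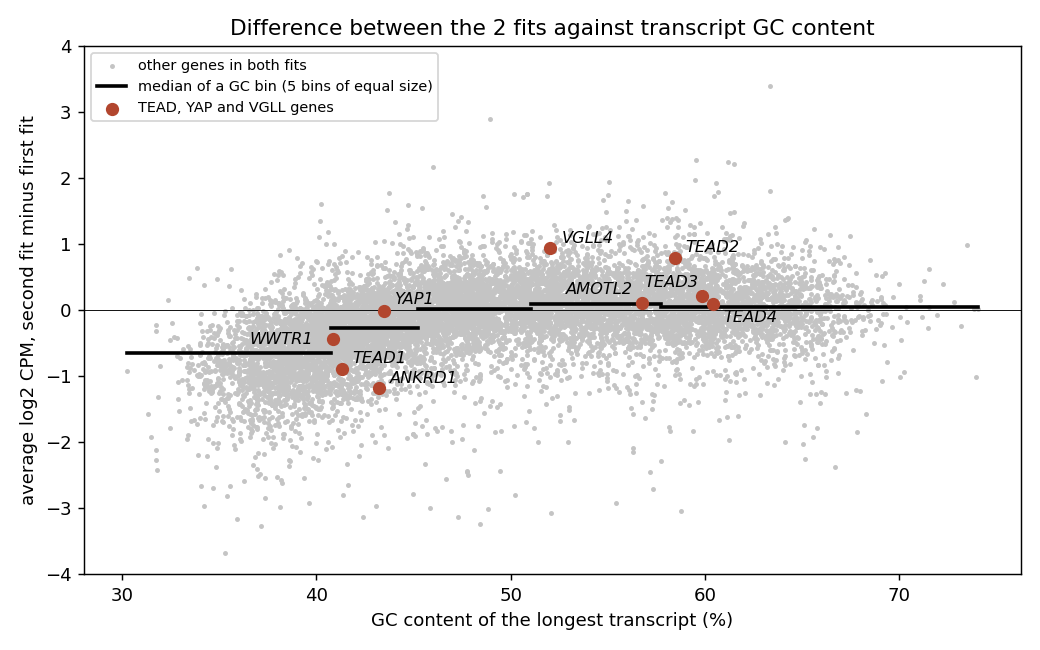
Average log2 CPM of the reconstitution fit minus that of the knockout fit (y axis) against the GC content of the longest transcript in percent (x axis). Grey points are the genes in both fits with a GC value, of which 4 of 10684 lie outside the plotted range, black lines are medians over the 5 bins of genes, and red points are the 9 genes analysed in both fits. ANKRD1 and TEAD1 lie below the line of their bin and VGLL4 and TEAD2 above it.

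Upstream of the coactivators, 21 of 23 listed genes of the kinase cascade and its scaffolds had a level in each fit. AMOT and DCHS1 had none in either. The median of the 21 genes was 6.16 log2 CPM in the knockout fit and 6.09 in the reconstitution fit. PTPN14, a phosphatase that binds YAP, was highest by reads in the knockout fit at 8.59 log2 CPM, followed by NF2 at 8.41, the gene for the scaffold merlin. Per kilobase of transcript these were 4.89 and 5.82 on the log2 scale, and AJUBA was highest at 6.09. SAV1, the scaffold of the upstream kinases, and the atypical cadherin FAT4 were lowest by reads, at 3.34 and 3.67 log2 CPM. Per kilobase in the knockout fit FAT4 was lowest at -0.339, and TAOK1 (1.637) and LATS1 (1.705) stood below SAV1 (1.728). The kinase genes LATS1 and LATS2 had 4.62 and 5.97 log2 CPM in the knockout fit and 4.34 and 6.09 in the reconstitution fit.

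Of 20 further genes listed as targets of YAP and TAZ, 19 had a level in each fit, and FOXF2 had none in either. LATS2 and PTPN14 stand both in this list and in that of the kinase cascade. Their median was 6.90 log2 CPM (percentile 83.1) in the knockout fit and 6.66 (percentile 82.4) in the reconstitution fit. CCN1, a secreted matrix protein, was highest by reads in the knockout fit at 10.57 log2 CPM, followed by the receptor tyrosine kinase AXL at 9.48. In the reconstitution fit CCN1 had 9.59 log2 CPM and AXL 9.60. RBMS3 and the tissue factor gene F3 were lowest by reads in the knockout fit, at 3.25 and 4.53 log2 CPM. CCN2, another secreted matrix protein and a commonly used YAP target, had 8.32 log2 CPM in the knockout fit and 7.27 in the reconstitution fit. Its difference of -1.06 lay at percentile 7.86 of the shared genes, beside -1.19 for ANKRD1 and 0.11 for AMOTL2. The differences of the 19 genes ran from -2.44 for IGFBP3 to 0.50 for NUAK2, and F3 had -2.08. Their median was -0.03, with 12 above and 7 below the median of all shared genes.

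The label of a hepatocellular carcinoma line was set beside marker genes. Of 10 hepatocyte markers 1 had a level in the knockout fit, FGB, and 2 in the reconstitution fit, FGB and SERPINA1, the latter at 1.88 log2 CPM. FGB had 3.20 log2 CPM in the reconstitution fit, which was -2.80 relative to the knockout fit and lay at percentile 0.219 of the differences of the shared genes. Defining hepatocyte genes such as ALB and HNF4A had no level in either fit. Of 5 epithelial markers 2 had a level in each fit, KRT8 and KRT18. They had 11.18 and 10.66 log2 CPM in the knockout fit and 12.02 and 11.21 in the reconstitution fit. EPCAM, CDH1 and KRT19 had no level in either fit. Of 5 mesenchymal markers 4 had a level in each fit, VIM at 11.71 log2 CPM in the knockout fit and 11.69 in the reconstitution fit, CDH2 at 7.72 and 8.06, FN1 at 6.32 and 5.20, and ZEB1 at 4.31 and 3.49. The part of such shifts in the differences of the family was not tested. Of 4 leukocyte markers 1 had a level, CD14 at 0.93 log2 CPM in the reconstitution fit, and of 3 endothelial markers 0 had one. USP28, the gene targeted by the guide RNA, averaged 5.15 log2 CPM in the knockout fit and 9.79 in the reconstitution fit, which includes the cells with USP28-WT and USP28-M. Its level in each condition was not analysed here.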

How the data were processed

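HLF cells of 5 conditions were profiled by RNA-seq, with 1 sample listed for each. Per the labels, reads were demultiplexed with bcl2fastq 2.20, aligned with STAR 2.5.4 on hg19 and compared with edgeR 3.26.8 by the authors. The counting, the annotation, the filter on low genes and the number of libraries per condition are not given in the sources used here. The deposited files are 3 tables of comparisons, which hold a log2 fold change, a p-value, an adjusted p-value and, in those for USP28-WT and USP28-M, an F statistic. These columns are the authors' own comparisons and were not used. The only column used is the authors' average log2 CPM per gene. In the knockout table the column names stand 1 field to the left of their values, which was allowed for. Both reconstitution tables hold equal averages for all 12342 genes and were treated as 1 fit. Of columns with values of single samples, 0 were left unmatched.

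The members and gene lists were chosen with earlier results of these data known. The text names all members and, in each pathway list, the 2 highest and 2 lowest genes of the knockout fit and those without a level. Markers without a level are given as counts, and some of them are named. Other names were LATS1, LATS2, AJUBA, TAOK1, CCN2, IGFBP3, NUAK2, DOCK5 and TGFB2, added after the values had been seen. Genes were matched by NCBI gene ID or by current or older symbol, because the fits use different symbols for 51 shared genes. No test was made, since no level of a single condition or library was used. Depth was taken from the steps of the average CPM in the lowest 10% of genes. On counts simulated for libraries of equal depth without added dispersion, this returned 100% of the true reads for both fits, with all low genes at whole numbers, so that the simulation does not cover libraries of unequal depth. On the deposited values it gave about 7690000 reads over all libraries of the knockout fit, with 95.4% of these genes within 0.1 reads of a whole number, and about 30500000 for the reconstitution fit, with 65.5%, and the latter number is the rougher one. Read numbers behind a level include the prior count, and 95% Poisson intervals cover counting error only. Transcript length and GC content are those of the longest coding transcript of GENCODE release 29 and covered 97.3% of shared genes. Promoters are from RefSeq on GRCh38.p14, a build other than the authors' hg19, and no coordinates were carried between builds. Values were computed with scipy 1.17.1, pandas 2.3.3 and numpy 2.4.6 under Python 3.11.15.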

Additional observations from a re-analysis of the deposited data

How the results depend on the processing

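No paired analysis was possible because the tables carry averages over all libraries and no replicate numbers, and for the same reason no replicate could be left out. Per kilobase of the longest transcript, the median level of the genes was 5.14 on the log2 scale in the knockout fit and 4.41 in the reconstitution fit. With 1 gene left out in turn, the median in the reconstitution fit ran from 6.06 to 6.82 log2 CPM. The median percentile was 64.5 in the knockout fit and 67.7 in the reconstitution fit among genes at or above an average of 3 log2 CPM, and 70.7 in the reconstitution fit among the genes of both fits. The lowest 5% of genes gave 7700000 reads for the knockout fit. The median difference between the fits was 0.09 on the log2 scale as deposited and 0.21 with the median of all shared genes subtracted. The difference of YAP1 changed from -0.01 to 0.11 with the median of all shared genes subtracted, and to 0.25 with the median of genes of like GC content subtracted, an alternative chosen after seeing the data. Under the latter the difference of ANKRD1 went from -1.19 to -0.92, of TEAD1 from -0.89 to -0.625, and of WWTR1 from -0.44 to -0.17. That of AMOTL2 went from 0.11 to 0.02, that of TEAD4 from 0.09 to 0.04, and the median of the family from 0.09 to 0.04. VGLL4, TEAD2 and TEAD3 stood at 0.84, 0.74 and 0.15 under this alternative. Taking off a prior of 2 reads per library, with 2 libraries assumed per condition, moved none of the 19 levels and none of the 9 differences of single genes beyond their counting intervals. Current symbols alone found 36 of the 38 listed pathway genes with a level in the reconstitution fit. Depth limits the knockout fit more, where VGLL4 rests on about 112 reads, against 848 in the reconstitution fit.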
